A study of Mus musculus with 6 samples.

Results

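The 8 genes described here encode neurotrophic factors (Bdnf, Ntf3 and Gdnf), receptors of the neurotrophins (Ntrk2, Ntrk3 and Ngfr) and the main chloride transporters of neurons and their neighbours (Slc12a5 and Slc12a2). They were taken by symbol from a table of 52513 genes, with no filter on expression, and all 8 were present. RNA of the L4 to L5 lumbar cord was sequenced in mice labelled WT that received intrathecal morphine (10 µg in 10 µL) or intrathecal saline for 7 days, with 3 libraries per group. The labels used here name no strain, sex or age. In each group the library descriptions list 3, 3 and 2 running numbers, which may stand for pooled animals, but the labels do not say so, and the p-values measure the spread between these libraries alone.

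BDNF, the product of Bdnf, binds the receptor tyrosine kinase TrkB (Ntrk2), and neurotrophin-3 (Ntf3) binds TrkC (Ntrk3). The receptor p75NTR (Ngfr) binds all neurotrophins and their uncleaved precursors. GDNF belongs to another family and signals through GFRa1 and Ret. In mature neurons KCC2 (Slc12a5) carries chloride out of the cell and NKCC1 (Slc12a2) carries it in, and the balance sets whether GABA and glycine receptors inhibit. In the rat dorsal horn, BDNF acting on TrkB is known to lower KCC2 function, a route that has been linked to spinal disinhibition and hyperalgesia by opioids. The comparison therefore asks whether RNA of these genes differed in cord after a week of morphine.

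None of the 8 genes changed at an adjusted p under 0.05 in limma, a linear model fitted over all genes (two-sided, Benjamini-Hochberg adjustment). Levels are FPKM, fragments scaled to transcript length and to sequencing depth, and log2 fold changes are of log2(FPKM + 1), morphine over saline. Of the 8, Slc12a5, Ntrk2, Slc12a2, Ntrk3 and Bdnf reached 1 FPKM in at least 3 libraries and were fitted with the 14614 genes that did. Ngfr, Ntf3 and Gdnf did not and were read from the same model on the 28021 genes above 0 in at least 1 library. The model called 1.51% of the 14614 genes (0.944% higher and 0.561% lower after morphine) and 0.0286% of the 28021. The 220 calls behind the first share became between 1 and 805 as single libraries were left out. At an unadjusted p under 0.05, 1 of the 5 fitted members (Ntrk3) was found, against 22.3% of the 14614 genes, and 0 of the 3 low members, against 14.1% of the 28021. The exact permutation tests cannot go below 0.1 with 3 libraries against 3.

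The libraries held an estimated 17880000 to 19880000 fragments after morphine and 21240000 to 26080000 after saline, and their columns summed to 720234 to 741145 FPKM after morphine and to 662470 to 670280 FPKM after saline. With the columns rescaled to an equal total (TPM), the 14614 genes had a median log2 fold change of -0.13, against -0.02 without, so small differences between the groups depend on the scaling. Motor neuron markers varied widely inside each treatment. Slc5a7, which takes up choline for acetylcholine synthesis, had 4.62, 18.27 and 1.86 FPKM in morphine libraries 1, 2 and 3, against 22.85, 20.38 and 3.70 FPKM in saline libraries 1, 2 and 3. The general neuron list, led by Snap25, Nefm and Nefl, summed to between 3764 and 4341 FPKM after morphine and to between 3921 and 4665 FPKM after saline. Sensory neuron markers summed to 0.55 FPKM or less in every library, so transcripts of dorsal root ganglion cell bodies were near 0.

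Slc12a5 had the highest level of the 8 genes, at 190 FPKM over the 6 libraries, above 96.6% of tested genes. Ntrk2 followed at 49.0, Slc12a2 at 35.9, Ntrk3 at 17.5 and Bdnf at 3.89 FPKM. Ngfr at 0.547, Ntf3 at 0.255 and Gdnf at 0.0533 FPKM were the lowest. The ranges of neighbours in this order did not overlap over the 6 libraries: Slc12a5 was 3.87-fold above Ntrk2, Ntrk2 1.37-fold above Slc12a2, and Ntf3 4.78-fold above Gdnf. FPKM is scaled by transcript length, so these levels can be compared between genes approximately. The length used depends on which transcripts were counted, and annotated transcripts of Ntrk2 run from 356 to 8744 nt.

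**Figure D1:**
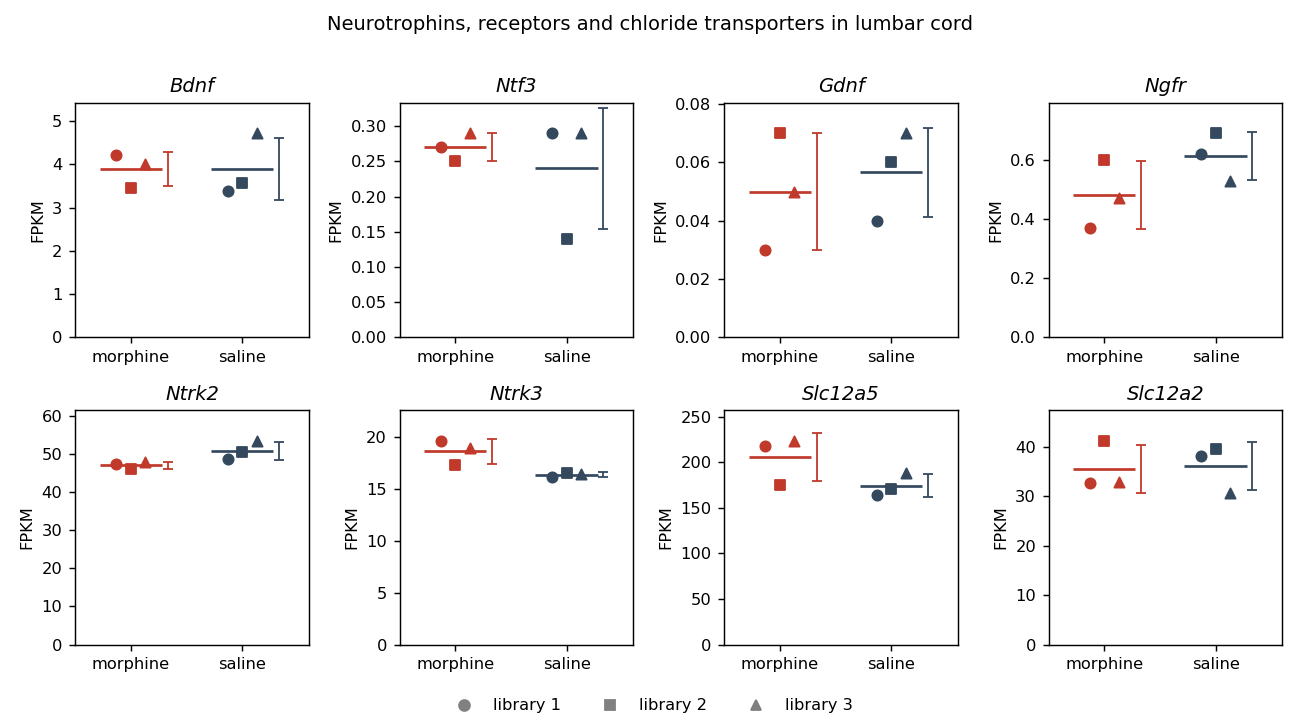
FPKM of the 8 genes in each library, with morphine on the left and saline on the right of each panel. Marker shape gives the library number, the horizontal bar is the group mean and the vertical bar its SD (n = 3). Ntrk3 and Ntrk2 are the genes whose groups did not overlap, with morphine above saline for Ntrk3 and below it for Ntrk2.

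The gene-level value adds up all transcripts of a gene, which matters for these loci because several start at more than 1 promoter. The RefSeq table of starts (GRCm38.p6, the mm10 build) held 7 start sites for Bdnf and 2 for Slc12a5. The 3 windows of 250 bases before a start that follow are shown because they hold the letters of motifs known for transcription factors that respond to neuronal activity or act at basal promoters, at the loci of Bdnf and Slc12a5. Each is printed up to the first base that GENCODE places in an exon of the gene. Capitals mark the letters of a searched motif on either strand: TGACTCA (AP-1, the site of Fos and Jun dimers), CACGTG (E-box, bound by Usf1 and Usf2) and TGACGT (the core of the cyclic AMP response element, CRE).
Slc12a5, chr2:164960596-164960801, plus strand, AP-1: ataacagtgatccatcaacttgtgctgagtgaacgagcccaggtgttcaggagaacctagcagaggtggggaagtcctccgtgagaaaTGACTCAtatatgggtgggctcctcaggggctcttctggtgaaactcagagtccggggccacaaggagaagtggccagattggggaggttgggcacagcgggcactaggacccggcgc
Slc12a5, chr2:164967738-164967982, plus strand, E-box: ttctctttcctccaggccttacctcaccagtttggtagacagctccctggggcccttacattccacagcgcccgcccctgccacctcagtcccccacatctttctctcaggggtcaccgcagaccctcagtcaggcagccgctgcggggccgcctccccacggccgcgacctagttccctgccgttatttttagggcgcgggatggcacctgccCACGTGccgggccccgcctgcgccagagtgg
Bdnf, chr2:109692186-109692435, plus strand, CRE core on the minus strand: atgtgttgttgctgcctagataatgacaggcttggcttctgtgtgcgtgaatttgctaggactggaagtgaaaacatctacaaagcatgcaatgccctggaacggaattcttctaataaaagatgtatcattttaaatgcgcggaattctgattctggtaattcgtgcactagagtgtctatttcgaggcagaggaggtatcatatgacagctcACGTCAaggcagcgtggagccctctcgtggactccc
The AP-1 match starts 162 bases before its start site, and the E-box and the CRE core each 36 bases before theirs. None of these matches overlapped another, and the other 6 Bdnf windows held none of the 3 motifs. Among the windows of Gdnf, Ntf3, Ngfr and Ntrk2, 1 of Gdnf held the CRE core, 51 bases before its start. In the same set 1 window of Ntf3 held the E-box, 231 bases before its start. No window of Ntrk3 or Slc12a2 is described here. Of 32851 such windows in the table, 4.46% held the AP-1 letters, 6.02% the E-box and 6.47% the CRE core. The matches describe the sequence alone, and FPKM per gene does not say which start was used.

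Bdnf (ENSMUSG00000048482, chromosome 2, 109674700 to 109727007, plus strand of mm10) has 11 annotated transcripts. It was at 4.21, 3.45 and 4.01 FPKM in morphine 1, 2 and 3 and at 3.39, 3.57 and 4.72 FPKM in saline 1, 2 and 3. The groups overlapped, with the lowest and the highest of the 6 values both in saline. The means were 3.89 ± 0.394 FPKM after morphine and 3.89 ± 0.722 after saline (SD, n = 3 each), and the log2 fold change was 0.01 (SE 0.13, 95% interval -0.29 to 0.31, limma adjusted p = 0.983). These levels rest on about 250 to 339 fragments per morphine library and 294 to 406 per saline library. Its opposite-strand neighbour Gm45346 shares 896 exonic bases with it and was at 0.18 FPKM or less.

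Ntf3 (ENSMUSG00000049107, chromosome 6, 126101412 to 126166910, minus strand) and Gdnf (ENSMUSG00000022144, chromosome 15, 7810846 to 7837575, plus strand) were close to the limit of detection. Ntf3 was at 0.27, 0.25 and 0.29 FPKM in the morphine libraries and at 0.29, 0.14 and 0.29 FPKM in the saline libraries, about 6 to 7 and 5 to 8 fragments. Only saline 2 stood lower, and the groups overlapped (log2 fold change 0.04, SE 0.06, 95% interval -0.11 to 0.19, limma adjusted p = 0.807). Gdnf was at 0.03, 0.07 and 0.05 FPKM after morphine and at 0.04, 0.06 and 0.07 FPKM after saline, about 2 to 4 and 3 to 5 fragments. Gdnf did not pass (log2 fold change -0.01, SE 0.03, limma adjusted p = 0.904). The 95% Poisson interval of morphine 1, 0.3 to 7.3 fragments, covers the estimated counts of all 6 libraries. This is not a test between the groups, and so few fragments measure a change in Gdnf poorly. The Poisson interval covers counting error alone. Of the 28021 genes, 19.1% had groups that did not overlap, against 0 of Ntf3, Gdnf and Ngfr.

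The receptors Ntrk3 and Ntrk2 were the members whose groups did not overlap. This held for 28.7% of the 14614 genes, with morphine above saline in 13% and below it in 15.7%, so it does not single out either gene. Ntrk3 (ENSMUSG00000059146, chromosome 7, 78175959 to 78738012, minus strand), which encodes the receptor for neurotrophin-3, was at 19.62, 17.31 and 18.94 FPKM in morphine 1, 2 and 3 and at 16.14, 16.57 and 16.43 FPKM in saline 1, 2 and 3. The saline values lay close together and every morphine value was above them, morphine 2 the least. The means were 18.6 ± 1.19 FPKM after morphine and 16.4 ± 0.219 after saline (SD, n = 3 each), a ratio of 1.14. The log2 fold change was 0.17 (SE 0.07, 95% interval 0.01 to 0.33, unadjusted p = 0.0376), and it did not pass after adjustment (limma adjusted p = 0.196, exact permutation p = 0.1). It was 0.05 with the columns rescaled to TPM and 0.26 with the trend on transcript length removed.

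Ntrk2 (ENSMUSG00000055254, chromosome 13, 58806569 to 59133970, plus strand) encodes full-length TrkB of neurons and the truncated form that lacks the kinase and is abundant in astrocytes, and its 10 annotated transcripts are added up here. It was at 47.39, 46.17 and 47.97 FPKM after morphine and at 48.69, 50.50 and 53.52 FPKM after saline. All 3 morphine values lay below all 3 saline values, with morphine 3 and saline 1 the nearest. The means were 47.2 ± 0.919 FPKM after morphine and 50.9 ± 2.44 after saline (SD, n = 3 each), with a log2 fold change of -0.11 (SE 0.06, 95% interval -0.24 to 0.03, limma adjusted p = 0.326, exact permutation p = 0.1). It was -0.23 after TPM rescaling, with an adjusted p of 0.0622, and -0.01 with the length trend removed, and lay between -0.14 and -0.07 when any 1 library was left out. Of 7 astrocyte markers 0 passed. Their summed level was 893 to 1198 FPKM after morphine and 900 to 1134 after saline, and 5 had a log2 fold change below 0 and 2 above it. Slc1a2, an astrocyte glutamate transporter, was at 118 ± 3.96 FPKM after morphine and 131 ± 2.65 after saline (limma adjusted p = 0.136), and Gfap, the intermediate filament of astrocytes, at 537 ± 151 FPKM after morphine and 520 ± 116 after saline (adjusted p = 0.934). Aldh1l1, a folate enzyme of astrocytes, was at 19.5 ± 1.03 FPKM after morphine and 17.9 ± 1.89 after saline (adjusted p = 0.487). Slc6a11 had the smallest p of the 7, at 81.9 ± 4.25 FPKM after morphine and 96.3 ± 1.84 after saline (limma adjusted p = 0.0771). At an unadjusted p under 0.05, 3 of the 7 were lower after morphine and 0 were higher, against 11.1% and 11.2% of all tested genes. The part of astrocyte RNA in the Ntrk2 values was not tested. In whole tissue, fewer cells of a type and less RNA per cell cannot be told apart.

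The ratio of Ntrk2 to Ntrk3 within a library does not depend on the scaling between libraries. This ratio was chosen after the values of both genes were seen. It was 2.42, 2.67 and 2.53 in morphine 1, 2 and 3 and 3.02, 3.05 and 3.26 in saline 1, 2 and 3. The means were 2.54 ± 0.126 after morphine and 3.11 ± 0.131 after saline (SD, n = 3 each), a log2 difference of -0.29. Since all morphine values of Ntrk2 lay below saline and all those of Ntrk3 above it, the ratio could not overlap between the groups, and it is given as a description with no test.

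Ngfr (ENSMUSG00000000120, chromosome 11, 95568818 to 95587735, minus strand) was at 0.37, 0.60 and 0.47 FPKM in the morphine libraries and at 0.62, 0.69 and 0.53 FPKM in the saline libraries. That is about 24 to 35 fragments per morphine library and 36 to 58 per saline library. Morphine 2 lay above saline 3, so the groups overlapped. The means were 0.480 ± 0.115 FPKM after morphine and 0.613 ± 0.0802 after saline (SD, n = 3 each), with a log2 fold change of -0.13 (SE 0.08, 95% interval -0.33 to 0.08, limma adjusted p = 0.578). With a pseudocount of 0.1 in place of 1 the log2 fold change was -0.31, since 1 FPKM is above the level of this gene, and it lay between -0.18 and -0.07 when any 1 library was left out.

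Slc12a5 (ENSMUSG00000017740, chromosome 2, 164960802 to 164999731, plus strand), the KCC2 gene, was at 217.47, 175.26 and 223.31 FPKM in morphine 1, 2 and 3 and at 163.75, 170.27 and 188.70 FPKM in saline 1, 2 and 3. Morphine 1 and 3 were above all saline libraries, while morphine 2 was below saline 3. The means were 205 ± 26.2 FPKM after morphine and 174 ± 12.9 after saline (SD, n = 3 each), a ratio of 1.18. The log2 fold change of 0.23 (SE 0.10, 95% interval -0.01 to 0.47) did not pass (limma adjusted p = 0.248, exact permutation p = 0.2). It was 0.34 without morphine 2 (adjusted p = 0.0526), 0.12 after quantile normalization and 0.10 after TPM rescaling. The 95% interval is that of the fit without rescaling. It does not account for the scaling between libraries or for their cell content. No limit on a fall of KCC2 RNA is read from it.

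Slc12a2 (ENSMUSG00000024597, chromosome 18, 57878678 to 57946821, plus strand), the NKCC1 gene, which glia and endothelium also express, was at 32.68, 41.23 and 32.88 FPKM after morphine and at 38.28, 39.53 and 30.70 FPKM after saline. The highest value was in morphine 2 and the lowest in saline 3, and the groups overlapped throughout. The means were 35.6 ± 4.88 FPKM after morphine and 36.2 ± 4.78 after saline (SD, n = 3 each), and the log2 fold change was -0.02 (SE 0.13, 95% interval -0.32 to 0.28, limma adjusted p = 0.934).

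**Figure D2:**
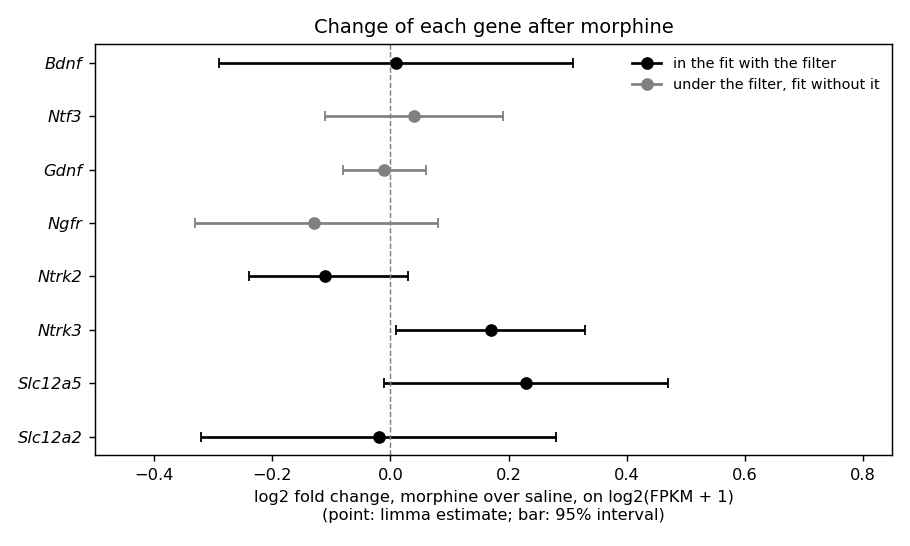
Log2 fold change of each gene, morphine over saline, on the log2(FPKM + 1) scale, with its 95% interval from limma. Black points come from the fit with the expression filter and grey points from the fit without it. The interval of Ntrk3 (0.01 to 0.33) lies just above 0 before adjustment for the number of genes, and the other 7 intervals include 0.

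The Slc12a5 to Slc12a2 ratio sets RNA for chloride export beside RNA for import within each library. It was 6.65, 4.25 and 6.79 in morphine 1, 2 and 3 and 4.28, 4.31 and 6.15 in saline 1, 2 and 3. Morphine 1 and 3 and saline 3 were high and the other 3 libraries were low, so the groups overlapped. The means were 5.90 ± 1.43 after morphine and 4.91 ± 1.07 after saline (SD, n = 3 each), a log2 difference of 0.25 (exact permutation p = 0.4). The log2 difference was 0.47 without morphine 2 and 0.43 without saline 3, and it was 0.15 without morphine 1, 0.14 without morphine 3 and 0.17 without saline 1 or saline 2.

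**Figure D3:**
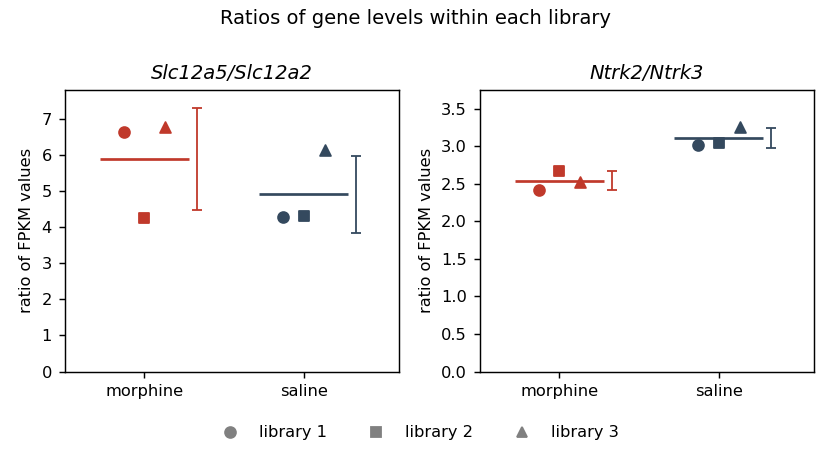
Ratios of FPKM values within each library, for Slc12a5 over Slc12a2 (left) and Ntrk2 over Ntrk3 (right), with morphine left of saline. Marker shape gives the library number, the horizontal bar is the group mean and the vertical bar its SD (n = 3). The Ntrk2 to Ntrk3 ratio was 2.42 to 2.67 after morphine and 3.02 to 3.26 after saline, while the Slc12a5 to Slc12a2 groups overlapped.

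Levels of 4 members were ordered across the 6 libraries with the motor neuron markers. Morphine 2, saline 1 and saline 2 had the 3 highest Slc5a7 levels, and the same 3 libraries had the 3 lowest levels of Bdnf and Slc12a5 and the 3 highest of Slc12a2 and Ngfr. In those 3 libraries Bdnf lay between 3.39 and 3.57 FPKM, and in the other 3 between 4.01 and 4.72 FPKM. How many other genes were ordered in this way was not counted, and nothing particular to these members is read from it. The motor neuron list (10 of 10 genes in the table) summed to 100, 249 and 41.2 FPKM in morphine 1, 2 and 3 and to 239, 254 and 51.9 FPKM in saline 1, 2 and 3. The list of Schwann cell and nerve root markers (6 of 6 tested) summed to 109, 278 and 59.8 FPKM after morphine and to 170, 289 and 137 FPKM after saline. Several other cell type lists had the same 3 libraries highest or lowest. The lists of inhibitory neurons, microglia, pericytes, ependymal cells and sensory neurons did not. Oligodendrocyte markers summed to 17917, 22378 and 16511 FPKM in morphine 1, 2 and 3, against 19995, 21015 and 14367 FPKM in saline 1, 2 and 3. Astrocyte markers summed to 893, 1198 and 919 FPKM after morphine and to 1134, 1109 and 900 FPKM after saline, and meningeal markers to 25.7, 52.1 and 11.7 FPKM after morphine and to 53.9, 46.5 and 36.9 FPKM after saline. In these lists morphine 2, saline 1 and saline 2 were the highest, while they were the lowest for excitatory neuron markers, at 94.1, 76.4 and 106 FPKM after morphine and 84.2, 86.0 and 113 FPKM after saline. With the mean motor neuron marker level as a covariate, the log2 fold change was -0.07 for Bdnf, 0.16 for Slc12a5, 0.07 for Slc12a2 and -0.09 for Ngfr, none of which passed (limma adjusted p = 0.65, 0.121, 0.494 and 0.632). What part the cell content of the dissected tissue has in these levels was not tested.

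**Figure D4:**
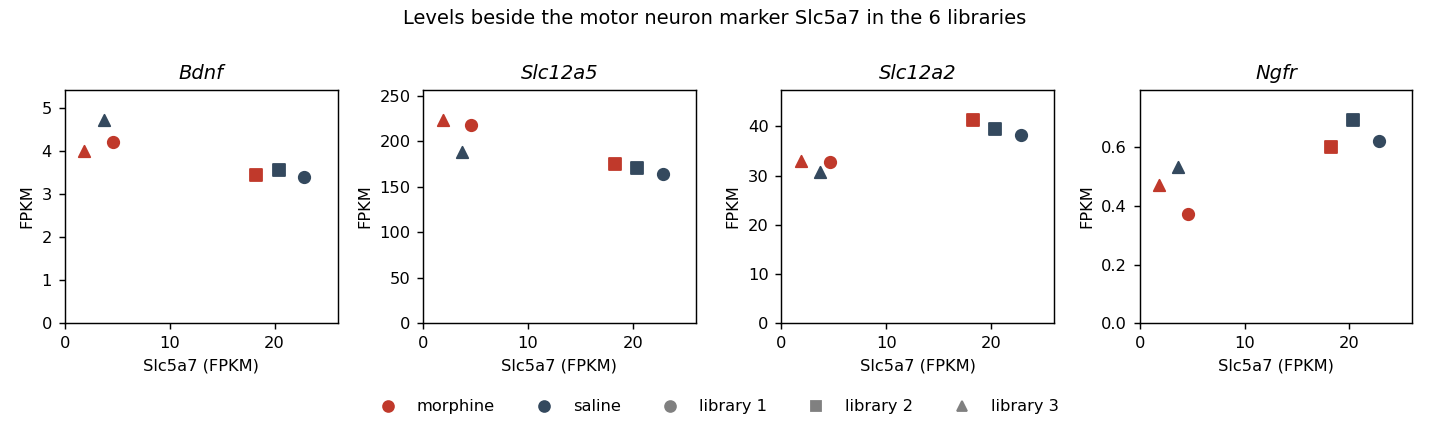
FPKM of Bdnf, Slc12a5, Slc12a2 and Ngfr (vertical axes) against that of the motor neuron marker Slc5a7 (horizontal axis) in the 6 libraries, with morphine in red and saline in blue. The libraries form 2 sets on the horizontal axis, at 1.86 to 4.62 and at 18.27 to 22.85 FPKM, each with libraries of both treatments.

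The genes whose pattern over the 6 libraries was most like that of Bdnf, by Pearson's r of log2(FPKM + 1), were Zic1, B3galnt1, Hoxb3, Tsr2 and Tshz3 (r = 0.998, 0.991, 0.990, 0.989 and 0.989). Zic1, a zinc finger transcription factor of dorsal neurons, was at 18.26, 14.22 and 16.96 FPKM after morphine and at 14.20, 15.15 and 20.91 FPKM after saline. For Slc12a5 they were Matk, Olfm1, Prkcb, Camta1 and Hnrnpd (r = 0.995, 0.995, 0.994, 0.994 and 0.994). Prkcb, a protein kinase C isoform of neurons, was at 186.27, 143.27 and 187.93 FPKM after morphine and at 132.82, 135.34 and 160.04 FPKM after saline. Many other genes came close: over the same 6 libraries, 72 tested genes had an r above 0.95 with Bdnf and 216 with Slc12a5.

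Around the members, 122 further genes in 11 lists cover other ligands and receptors, processing enzymes, Trk and p75NTR signalling, and the control of chloride. Of the 103 that were tested, 0 rose and 1 fell, which is 0.971% against 1.51% of all tested genes. The gene that fell was 1 of 11 tested partners and regulators of KCC2, Epb41l1, whose product protein 4.1N links membrane proteins, KCC2 among them, to the actin cytoskeleton. It was at 86.88, 93.01 and 89.46 FPKM in morphine 1, 2 and 3 and at 114.95, 112.73 and 121.71 FPKM in saline 1, 2 and 3, so all morphine libraries were lower. The means were 89.8 ± 3.08 FPKM after morphine and 116 ± 4.68 after saline (SD, n = 3 each), a log2 fold change of -0.37 (SE 0.06, limma adjusted p = 0.0456). It no longer passed without morphine 1, morphine 3, saline 1, saline 2 or saline 3 (adjusted p = 0.152, 0.141, 0.146, 0.147 and 0.105). It passed in 5 of 14 alternatives, with adjusted p between 0.0286 and 0.152 over them and a log2 fold change between -0.50 and -0.28.

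Ntf5, which encodes neurotrophin-4, was low, at 0.03 FPKM after morphine and 0.0633 after saline (n = 3 each). Sortilin (Sort1), which pairs with p75NTR to bind precursors, was at 44.38, 50.89 and 46.29 FPKM after morphine and at 55.70, 55.09 and 53.06 FPKM after saline (limma adjusted p = 0.129). In this list 0 of 5 tested genes passed. In the GDNF family 0 of 6 passed, and Gfra1, the GDNF co-receptor, was at 17.4 ± 2.40 FPKM after morphine and 22.0 ± 2.06 after saline (adjusted p = 0.15). Gfra4 was at 42.0 ± 4.64 and 34.8 ± 4.36 FPKM after morphine and saline (adjusted p = 0.227). Among 10 tested processing genes 0 passed. Cpe, carboxypeptidase E, a sorting receptor and peptidase of secretory granules, came closest at 939 ± 51.1 FPKM after morphine and 777 ± 29.0 after saline (SD, n = 3 each; adjusted p = 0.0625).

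Inside the cell, 0 of 17 tested Trk signalling genes passed. Shc3, an adaptor of Trk receptors in neurons, was at 2.41 ± 0.306 FPKM after morphine and 4.06 ± 0.572 after saline (SD, n = 3 each; log2 fold change -0.57, limma adjusted p = 0.0618). Crkl, another adaptor, was at 7.24 ± 1.80 and 12.0 ± 0.674 FPKM after morphine and saline (adjusted p = 0.0672). In the p75NTR list 0 of 10 passed, with Tnfrsf19, a relative of p75NTR, at 9.50 ± 0.681 and 12.4 ± 0.643 FPKM after morphine and saline (adjusted p = 0.0672). Bex3, a p75NTR-associated protein, was at 344 ± 25.7 FPKM after morphine and 285 ± 20.4 after saline (adjusted p = 0.105). Transcription factors of Bdnf had 0 of 12 past the threshold, among them Creb1, which binds the CRE, at 6.57 ± 0.415 FPKM after morphine and 7.71 ± 0.555 after saline, and Mef2d at 18.8 ± 1.25 FPKM after morphine and 22.3 ± 2.11 after saline (adjusted p = 0.217 and 0.191).

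On the chloride side, 0 of 3 other tested SLC12 transporters passed. Slc12a4, the exporter KCC1, was at 7.37 ± 0.943 FPKM after morphine and 8.71 ± 1.40 after saline (SD, n = 3 each; limma adjusted p = 0.384). Of 11 tested genes of the WNK pathway, whose kinases inhibit KCC2 and activate NKCC1 by phosphorylation, 0 passed. Wnk1 was at 107 ± 10.5 FPKM after morphine and 132 ± 12.8 after saline, and Cul3 at 56.1 ± 3.16 FPKM after morphine and 62.6 ± 1.32 after saline (adjusted p = 0.144 and 0.188). Of 13 other chloride and bicarbonate genes 0 passed, with Clcn6, a vesicular chloride transporter, at 20.4 ± 0.713 FPKM after morphine and 24.7 ± 0.281 after saline, and Clcn3, its relative, at 38.8 ± 3.60 FPKM after morphine and 46.7 ± 1.77 after saline (adjusted p = 0.0652 and 0.115).

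Of the microglial genes on the route from ATP to BDNF release, 0 of 5 tested passed. P2rx4, the receptor that starts this route in rats, was at 10.2 ± 0.953 FPKM after morphine and 8.30 ± 0.743 after saline (SD, n = 3 each; limma adjusted p = 0.159), and Panx1, a channel that releases ATP, was at 7.54 ± 0.110 FPKM after morphine and 9.16 ± 1.22 after saline (adjusted p = 0.213). Of the 7 tested microglia markers 0 passed, with P2ry12 at 25.9 ± 2.58 FPKM after morphine and 27.1 ± 2.28 after saline and Csf1r at 13.6 ± 1.36 FPKM after morphine and 14.8 ± 1.63 after saline. The log2 fold change was below 0 for 5 of the 7 and above 0 for Cx3cr1 and Aif1. Aif1, which encodes the microglial protein Iba1, had the smallest p of the list, at 13.5 ± 3.20 FPKM after morphine and 9.43 ± 1.35 after saline (log2 fold change 0.46, unadjusted p = 0.0282, limma adjusted p = 0.171). Over all tested genes 1.51% passed. Among the markers of all 14 cell types 1 gene passed, 1 of the 4 tested ependymal markers. It was Ccdc153, at 1.48 ± 0.308 FPKM after morphine and 0.240 ± 0.252 after saline (limma adjusted p = 0.0488). Ccdc153 was at 1.36, 1.25 and 1.83 FPKM in the morphine libraries and at 0.11, 0.53 and 0.08 FPKM in the saline libraries. It met the filter of 1 FPKM only through the group where it was high, so nothing is read from its call. At an unadjusted p under 0.05 in limma, 4 of 6 tested endothelial and 3 of 4 tested pericyte markers were lower after morphine. In both lists 0 were higher. Over all tested genes 11.1% were lower and 11.2% higher at that p. The cause was not tested.

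At an unadjusted p under 0.05, 3 of the 103 pathway genes were higher after morphine and 25 were lower (2.91% and 24.3%, against 11.2% and 11.1% of all tested genes). Their median log2 fold change was -0.07, beside -0.02 for all tested genes. With the trend of fold change on transcript length removed, 3 were higher and 9 were lower at that p, against 7.36% lower of all tested genes, and 0 passed the adjusted threshold. After TPM rescaling 0 rose and 16 fell, where 6.53% of all tested genes were called in either direction. At an unadjusted p under 0.05 after this rescaling, 0 were higher and 41 lower, against 628 and 3968 of all tested genes (27.2% lower). The median log2 fold change was then -0.19 for the pathway genes and -0.13 for all tested genes, so the rescaling moved both downward. With the motor neuron covariate 2 rose and 8 fell, where 565 of all tested genes rose and 401 fell (6.61% called). The lists were chosen with earlier results of these data known, so these counts and shares are a description alone.

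**Figure D5:**
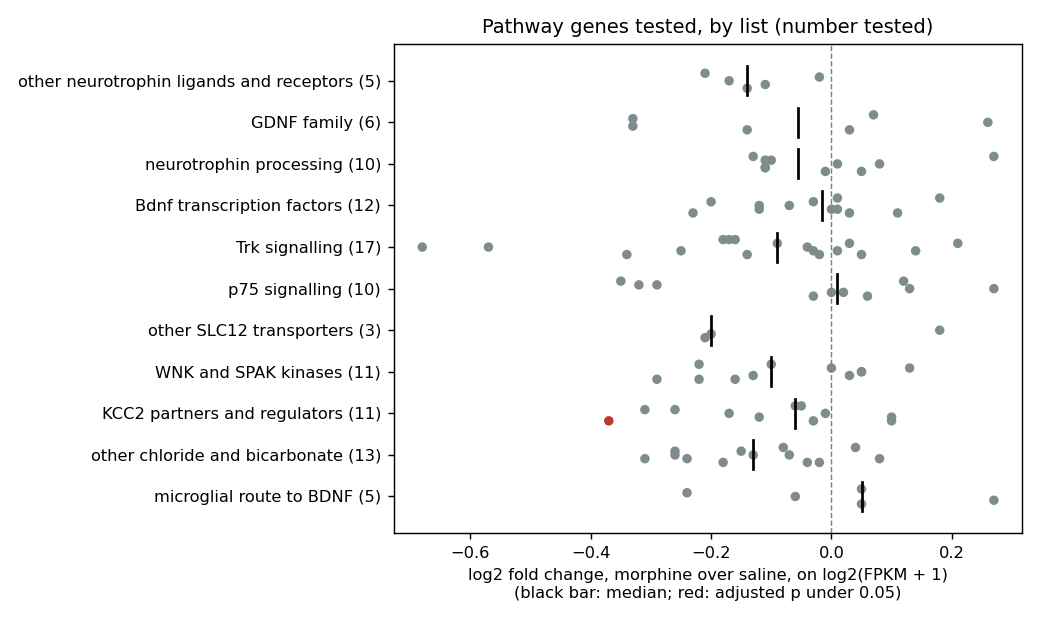
Log2 fold changes of the tested pathway genes, morphine over saline on the log2(FPKM + 1) scale, in 11 lists with the number tested in brackets. Each point is a gene, the black bar is the median of the list, and the red point is Epb41l1 (-0.37), the 1 gene past the adjusted threshold.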

How the data were processed

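Sequenced RNA of 6 libraries was read from 1 deposited table, in which the authors gave each gene's level as FPKM to 2 decimals. The build was mm10 and the tools named were RSEM, STAR, Trimmomatic and bcl2fastq 2.19.0, according to the submitters' processing notes, and the library kit was stranded per the labels' protocols. Which annotation was counted, and whether strand was used, was not given in the sources used here. Symbols came from the table, and coordinates and lengths from GENCODE M21 on the same build (99.8% of tested genes). Members and lists were chosen with earlier results of these data known, and so were the tests.

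Genes that reached 1 FPKM in 3 or more libraries were fitted in limma 3.58.1 (R 4.3.3) on log2(FPKM + 1) with an intensity trend, and fold changes on that scale understate the change of low genes. The fits were tested on simulated data. Low values move in steps of 1 fragment, which gave the depth, from genes with 1 transcript of 300 to 1500 nt, where 77.6% to 80.3% of values of up to 6 fragments came within 0.05 of a whole number or within rounding. Fragments per gene assume the longest transcript and are approximate. Exact permutation tests are two-sided (SciPy 1.17.1). Every member is named. From each pathway list the genes past the threshold, or up to 2 with the smallest p, are named, with further genes for their level, and pattern-like genes are the 5 tested genes with a named symbol and the highest r. Some genes that this rule would name are not reported here. Other settings tried were the pseudocount, the filter, 2 scalings, the variance trend, the replicate block, the length trend, a motor neuron covariate and leaving out each library.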

Additional observations from a re-analysis of the deposited data

How the results depend on the processing

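None of the 8 members passed the threshold under any of 109 alternative values, whose adjusted p ran from 0.0526 (Slc12a5 without morphine 2) to 1, and 94 kept their direction. The sign turned for Bdnf after TPM rescaling (-0.10) and with the motor neuron covariate (-0.07), for Gdnf with the length trend removed (0.02), and for Slc12a2 with the length trend removed (0.07) and with the covariate (0.07). Leaving out each library gave -0.07 to 0.12 for Bdnf, -0.02 to 0.07 for Ntf3, -0.02 to 0.00 for Gdnf and -0.13 to 0.04 for Slc12a2. The cause was not tested. Of all genes 220 were called, against 954 after TPM rescaling, 102 after quantile normalization, 36 without the intensity trend, 31 with the length trend removed, 966 with the covariate and 8 with no filter, where more genes were tested. The count was 1 without morphine 1, 805 without morphine 2, 1 without morphine 3, 1 without saline 1, 8 without saline 2 and 2 without saline 3. With the replicate number as a block 24 genes were called, and Epb41l1 had an adjusted p of 0.0545. Deviations of same-numbered libraries from their group means correlated at -0.129, 0.161 and 0.295. Morphine 1 correlated best with saline 3 (0.109), morphine 2 with saline 1 (0.238) and morphine 3 with saline 3 (0.295). With 3 libraries per group these values cannot decide whether same-numbered libraries were paired. Depth limits Gdnf and Ntf3, at 8 fragments or fewer per library.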
